A study of Mus musculus with 4 samples.

Results

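The barcodes described here are called plasma cells of the mouse colon, and came through a sort designed for monocytes and macrophages. Each also held macrophage transcripts, as described below. A droplet barcode was counted as a plasma cell when it held at least 1000 unique molecular identifiers (UMIs), at least 317 genes and at most 7% mitochondrial UMIs, and when at least 20% of its UMIs fell on immunoglobulin constant, variable or joining genes or on Jchain. This rule found 80 barcodes among the 4623 that passed the first 3 limits and the 6954 in the table. The mouse of origin was read from the end of each barcode name, which gave 20, 17, 8 and 35 plasma cell barcodes for DEP 11, DEP 13, PBS 2 and PBS 3, the order in which values of the 4 mice are given throughout. The remaining 4543 barcodes are called the other kept barcodes.

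The study asked what diesel exhaust particles (DEP) reaching the gut do to colon macrophages. Male C57/Bl6N mice were gavaged 5 days a week over roughly 6 months, with 12 µg of DEP in 200 µL of phosphate-buffered saline (PBS) or with PBS alone. Colon lamina propria cells with CD11b and with Ly6C, CD64 or both on their surface were sorted in parallel from 2 mice per group, and each mouse was loaded on its own well of a droplet device (10x Genomics 3′ chemistry, version 2). Neither group carried a transgene or a deletion, and each mouse gave 1 library. The gate was meant for myeloid cells, although a gene of Ly6C was high in the plasma cell barcodes, as described below. The plasma cells here are those that passed such a gate and not a census of the colon.

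Plasma cells are the antibody-secreting end stage of the B cell lineage. In the gut lamina propria most of them make IgA, which is joined into dimers by the J chain and carried across the epithelium into the lumen. Making so much secreted protein goes with a large endoplasmic reticulum (ER), which the transcription factor Xbp1 helps to build.

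The immunoglobulin share that chose the barcodes had a wide empty stretch around its threshold. The 3 kept barcodes just outside it held 13.03%, 13.3% and 15.5% immunoglobulin UMIs, and the 3 just inside held 26.0%, 26.8% and 30.7%. Plasma cell barcodes held a median of 47.5% (range 26.0 to 77.4%) and the other kept barcodes a median of 0.537%. These values describe the rule and were not tested.

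**Figure D1:**
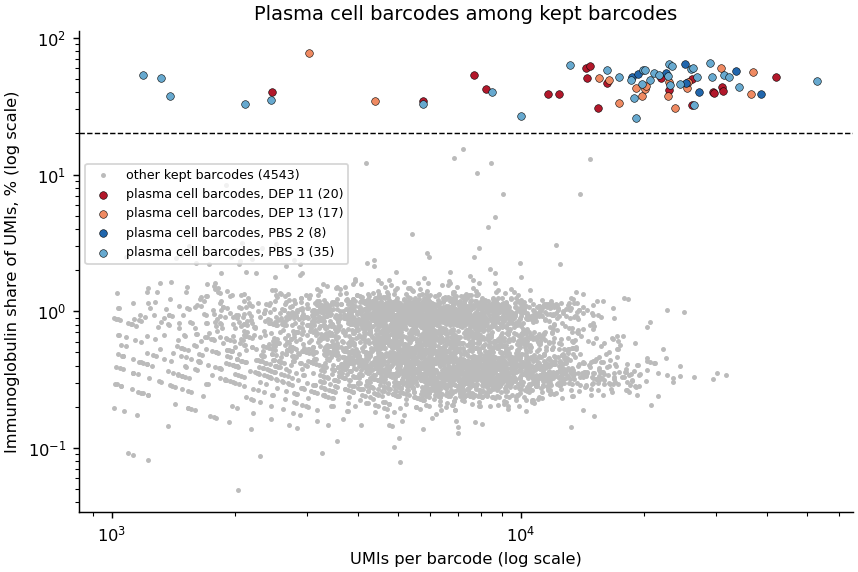
Each point is 1 kept barcode, with its UMIs on the x axis (log scale) and the immunoglobulin share of its UMIs in percent on the y axis (log scale); grey points are the 4543 other kept barcodes, coloured points the 80 plasma cell barcodes by mouse, and the dashed line marks 20%. No point lies between 15.5% and 26.0%, and most plasma cell barcodes sit at the right of the UMI range.

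Plasma cell barcodes were deep. They held a median of 20942 UMIs and 2652.5 genes, against 5893 UMIs and 1679 genes in the other kept barcodes. Outside immunoglobulin genes the medians were 10668 and 5848 UMIs, so the extra depth was not immunoglobulin alone. Median mitochondrial shares ran from 1.40% to 1.83% over the mice, against 1.61% to 1.99% in the other kept barcodes. The doublet caller scrublet marked 57 of the 4623 kept barcodes (1.23%) and 0 of the 80. Of the 80 barcode sequences 6 also occurred in another mouse, none of them in another plasma cell barcode, and 3 of the 6 partners were PBS 3 barcodes of 110, 112 and 162 UMIs with 50.9%, 59.8% and 46.9% immunoglobulin. Another 6 of the 80 held under 3000 UMIs, of which 5 were in PBS 3 and 1 in DEP 11.

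IgA was the class of nearly all of these cells. Igha, the heavy chain constant gene of IgA (chr12:113254830-113260236 on mm10), led every other heavy chain constant gene in 80 of 80 barcodes. In 79 of them it took 1.51% to 18.3% of the UMIs (median 9.98%) and at least 92.9% of the heavy chain constant UMIs (median 99.9%). The remaining barcode, in DEP 13, held 19 Igha UMIs among 19741, or 0.0962%, beside 5249 Igkc and 1917 Jchain UMIs. Its next heavy chain constant gene had 1 UMI, so almost no heavy chain constant transcript was counted in a barcode with abundant light chain.

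Jchain, the gene of the J chain (chr5:88519809-88527891), was counted in every plasma cell barcode, at 1.72% to 9.82% of its UMIs (median 5.74%). Summed over the barcodes of a mouse, Igha took 9.65%, 8.69%, 12.8% and 9.34% of the UMIs. Jchain took 5.01%, 5.45%, 5.43% and 6.34%. The kappa constant gene Igkc (chr6:70726435-70726966) was the largest component, with 23.8%, 29.3%, 27.4% and 30.3%.

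Other isotypes appeared as small additions. Ighm, the IgM constant gene, had at least 50 UMIs in 3 barcodes, all in DEP 11, with 176, 132 and 86 UMIs beside 2316, 2630 and 2569 Igha UMIs. Each of the other 77 barcodes had at most 10 Ighm UMIs. Ighg2b, the IgG2b constant gene, had at least 10 UMIs in 12 barcodes spread over all mice (1, 5, 1 and 5 barcodes), with a maximum of 131 UMIs beside 4743 Igha UMIs. Ighg1 had 2 UMIs in all, Ighd 2 and Ighe 0, and 0 of 80 barcodes allows a share of barcodes with an Ighe UMI of up to 3.75%.

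The light chain was kappa in 75 barcodes and lambda in 5. Of the lambda barcodes 2 were in DEP 11, 1 in PBS 2 and 2 in PBS 3, and 4 were led by Iglc1 and 1 by Iglc2. The split was sharp in each barcode. The lesser light chain took a median of 1.63% and at most 5.21% of light chain constant UMIs in kappa barcodes, and 0.578% to 2.61% in lambda barcodes, which still held 39 to 275 Igkc UMIs. Iglc2 and Iglc3 are close copies whose reads may be divided between them, and the barcode led by Iglc2 held 8274 Iglc2, 3543 Iglc3 and 17 Iglc1 UMIs.

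**Figure D2:**
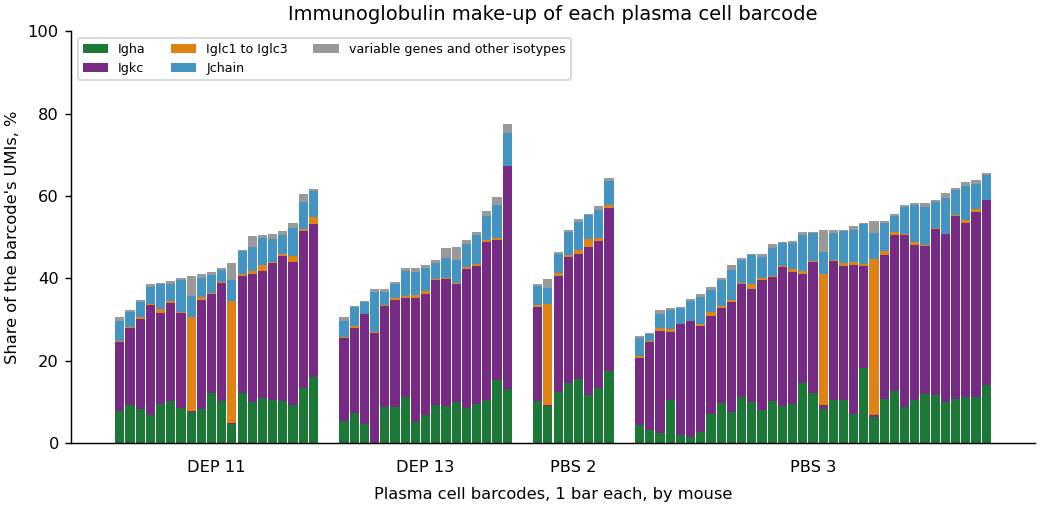
Each bar is 1 plasma cell barcode, grouped by mouse and ordered by immunoglobulin share; the segments give Igha, Igkc, Iglc1 to Iglc3, Jchain and all remaining immunoglobulin genes as percent of the barcode's UMIs. The 5 lambda barcodes are those with a wide orange segment, and the DEP 13 bar without a green segment is the barcode with 19 Igha UMIs.

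Variable genes were counted thinly, since the library reads start from the 3′ end of the transcript. Kappa barcodes held a median of 66 Igkv UMIs (0 to 619), and all 80 barcodes a median of 6 Ighv UMIs. A barcode was said to have a leading Igkv gene when it held at least 20 Igkv UMIs and 1 gene took at least 50% of them, which held for 48 of the 75 kappa barcodes. These 48 had 26 different leading genes, of which 20 led 1 barcode each. Igkv1-117 led 9 barcodes, in all 4 mice, Igkv1-110 led 7, in 2 mice, Igkv10-96 led 5, in all 4 mice, and Igkv12-46 led 3, in 2 mice. Of the 28 barcodes with at least 10 Ighv UMIs, Ighv4-1 led 4 and Ighv1-39 led 3.

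The most frequent kappa genes are close copies of each other, and for that reason their sequences are shown. Both lie on the plus strand of chromosome 6, Igkv1-117 at chr6:68121528-68121827 and Igkv1-110 at chr6:68270968-68271267 (mm10), each stretch being the last 300 of the 313 bases of exon 2, the variable exon. Capitals mark the 10 bases at which they differ, which leaves 96.7% identity.
Igkv1-117: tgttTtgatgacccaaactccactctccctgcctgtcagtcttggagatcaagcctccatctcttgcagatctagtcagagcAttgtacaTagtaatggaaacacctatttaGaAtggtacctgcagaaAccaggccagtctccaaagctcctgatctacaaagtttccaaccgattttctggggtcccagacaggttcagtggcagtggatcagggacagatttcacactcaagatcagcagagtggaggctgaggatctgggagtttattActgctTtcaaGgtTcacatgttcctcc
Igkv1-110: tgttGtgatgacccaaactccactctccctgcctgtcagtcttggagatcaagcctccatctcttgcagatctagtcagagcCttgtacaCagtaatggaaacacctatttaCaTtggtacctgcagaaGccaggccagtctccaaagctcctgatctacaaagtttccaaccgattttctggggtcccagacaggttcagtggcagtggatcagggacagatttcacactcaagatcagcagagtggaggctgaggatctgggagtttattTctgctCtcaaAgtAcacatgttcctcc

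Reads from genes this similar can be divided between them. In the 9 barcodes led by Igkv1-117 that gene had 502 UMIs and Igkv1-110 had 134, and in the 7 led by Igkv1-110 that gene had 448 UMIs and Igkv1-117 had 149. The leading gene took 60.0% to 89.7% of Igkv UMIs in the first set and 53.9% to 83.3% in the second. The assignment of a barcode to either gene is therefore uncertain, and these counts are no count of clones.

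Outside immunoglobulin genes, levels are given as UMIs per 1000000 UMIs outside immunoglobulin genes (non-Ig CPM), summed per mouse, so that the immunoglobulin share does not depress the rest. Ratios are taken within each mouse against its other kept barcodes after adding 1 to both levels. They describe cells chosen by their immunoglobulin and carry no test. Of 8576 genes, 366 (4.27%) were over 2 times the other kept barcodes in every mouse, as were 17 of the 19 genes of the plasma cell identity list.

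The defining genes of plasma cells were strongly present. Mzb1, an ER cochaperone of B lineage cells, stood at 3259, 1435, 2801 and 1418 non-Ig CPM. It was counted in 97.5% of plasma cell barcodes and in 7.53% of the others, with within-mouse ratios of 82.9 to 300.4. Sdc1, the surface marker CD138, stood at 333.9, 246.7, 831.8 and 298.9 (ratios 68.1 to 189.6), and barcodes under 500 UMIs had none. Tnfrsf17, the survival receptor BCMA, stood at 315.1, 307.1, 382.4 and 246.2 (ratios 62.6 to 129.8). Every mouse thus carried these markers at a similar order of level, with PBS 2 highest for Sdc1 and Tnfrsf17.

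The transcription factors of the lineage differed in how far they stood out. Xbp1 stood at 1368, 1425, 2964 and 1254 non-Ig CPM, with a median ratio of 9.81. Pou2af1, the B cell coactivator OBF-1, had a median ratio of 65.0 and Irf4, which drives plasma cell differentiation, one of 8.77. Prdm1, which encodes Blimp-1, stood at 65.8, 45.3, 47.8 and 35.2 non-Ig CPM, against a mean of 35.4 in the other kept barcodes, with ratios of 0.973 to 1.92. It was thus close to the rest, and barcodes under 500 UMIs held more of it, at a mean of 229.6 non-Ig CPM.

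Among the other genes of the identity list, several serve the secretory pathway. Derl3, of ER-associated degradation, had a median ratio of 66.0, Fkbp11, an ER prolyl isomerase, 57.4, Eaf2 59.2, Txndc5, an ER disulfide isomerase, 39.1, and Trp53inp1 38.5. Edem1 (9.45), Creld2 (8.75), Sec11c (8.61), Ssr4 (5.10), Tent5c (4.50) and Slamf7 (2.91) stood lower. Cd38, present on macrophages too, had a ratio of 0.246 to 1.10. Prdm1 and Cd38 were the 2 list genes that were not over 2 times the others in every mouse.

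Genes outside the identity list led the ranking as well. Ranked by the lowest of the mouse ratios among genes with a UMI in at least 25% of plasma cell barcodes, the top 15 outside immunoglobulin genes held Mzb1, Sdc1, Tnfrsf17, Eaf2, Pou2af1, Derl3, Fkbp11 and Txndc5 from the identity list. The other members were Ccr10, the receptor for the mucosal chemokines CCL27 and CCL28, Ly6d, the calcium channel subunit gene Cacna1s, the adaptor gene Lax1, Prg2, the costimulatory receptor gene Cd28 and the unnamed locus Gm30211. Ly6d stood at 1190, 1606, 678.8 and 1187 non-Ig CPM, with ratios of 45.1 to 64.5. Ccr10 stood at 446.7, 206.4, 468.5 and 257.9, with ratios of 63.0 to 162.7. Lax1 was counted in 40 of the 80 plasma cell barcodes and 0.220% of the others, Cd28 in 68.8% and 1.36%.

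Single plasma cell barcodes varied widely around these sums. Ly6d ran from 0 to 13691 non-Ig CPM over the 80 barcodes with a median of 882.8, and Mzb1 from 0 to 18266 with a median of 1460. Mzb1 and Xbp1 each had a UMI in 78 of the 80, Sdc1 in 68, Tnfrsf17 in 64 and Ccr10 in 57. Ssr4, a subunit of the translocon-associated complex, was the most even of the identity genes in detection, with a UMI in all 80.

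The machinery that folds, imports and exports secreted proteins was high as a whole. In the list of unfolded protein response genes and ER chaperones, 25 of 28 were over the other kept barcodes in every mouse and 16 were over 2 times, with a median ratio of 3.24 beside 1.09 over all 8576 genes. In the list for ER translocation and signal peptide cleavage, 30 of 30 were over the others in every mouse (median ratio 2.58), and in that for ER to Golgi transport 18 of 20 were (median 2.41). Over all genes 1669 (19.5%) were over the others in every mouse. The chaperone list took 1.29% to 1.98% of non-immunoglobulin UMIs in the plasma cell barcodes of each mouse and 0.385% to 0.484% in the others, ranges that do not overlap.

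Among the chaperones Hsp90b1, which encodes GRP94, stood at 3611, 2281, 3021 and 2096 non-Ig CPM (median ratio 6.58). Hspa5, which encodes BiP, stood at 2680, 1440, 2008 and 1890 (median ratio 2.17), and Pdia6, a disulfide isomerase, had a median ratio of 3.66. Of the translocation genes Krtcap2 had a median ratio of 4.03 and Sec61b, a subunit of the import channel, 2.97. Of the export genes Tmed10, a cargo receptor, had one of 2.77.

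Some promoters of the chaperone genes held a known sequence element, shown here because the list was high as a whole. The ER stress response element was searched on both strands, as CCAAT and CCACG with 9 bases of any kind between them, in RefSeq promoters of build GRCm38.p6, 250 bases before to 50 after each gene's start. Of the 28 chaperone genes 23 had a promoter in the table, and 8 of the 23 (34.8%) held the element, namely Hspa5, Calr, Hsp90b1, Canx, Pdia6, Dnajc3, Creld2 and Syvn1. Of all 32851 promoters 39 (0.119%) held it, and of the 22 found for the translocation list 0 did. The shorter letters TGACGTGG, bound by Xbp1 in other settings, were in 0 of the 23 and in 0.676% of all promoters. The list was chosen for the ER stress response that names the element, so these shares are a description and no test. A match says only that the letters are there.

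The promoters of Hspa5, Hsp90b1 and Creld2 follow, with the element in capitals on whichever strand it was found. Hspa5 lies at chr2:34771840-34772139 on the plus strand, Hsp90b1 at chr10:86705395-86705694 on the minus strand and Creld2 at chr15:88819396-88819695 on the plus strand. The element begins 65 bases before the start in Hspa5, 212 and 107 bases before it in Hsp90b1, which holds 2, and 126 bases before it in Creld2.
Hspa5: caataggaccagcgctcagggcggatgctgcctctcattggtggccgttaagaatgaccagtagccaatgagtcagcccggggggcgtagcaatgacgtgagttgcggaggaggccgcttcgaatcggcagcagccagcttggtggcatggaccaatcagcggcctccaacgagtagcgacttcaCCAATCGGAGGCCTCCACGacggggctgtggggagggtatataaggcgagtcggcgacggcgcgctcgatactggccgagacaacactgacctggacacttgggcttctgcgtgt
Hsp90b1: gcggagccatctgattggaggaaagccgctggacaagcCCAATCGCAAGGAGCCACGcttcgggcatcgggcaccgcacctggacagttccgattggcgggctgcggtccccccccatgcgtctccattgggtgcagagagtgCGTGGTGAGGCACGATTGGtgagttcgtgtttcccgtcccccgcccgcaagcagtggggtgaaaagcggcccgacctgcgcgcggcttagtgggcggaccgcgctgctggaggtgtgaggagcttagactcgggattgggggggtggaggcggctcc
Creld2: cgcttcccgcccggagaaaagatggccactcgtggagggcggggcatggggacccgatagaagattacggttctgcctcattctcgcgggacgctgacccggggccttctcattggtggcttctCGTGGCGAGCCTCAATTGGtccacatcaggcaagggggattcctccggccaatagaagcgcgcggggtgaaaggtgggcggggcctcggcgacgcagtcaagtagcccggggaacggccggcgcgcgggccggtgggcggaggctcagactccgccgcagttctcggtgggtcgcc

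**Figure D3:**
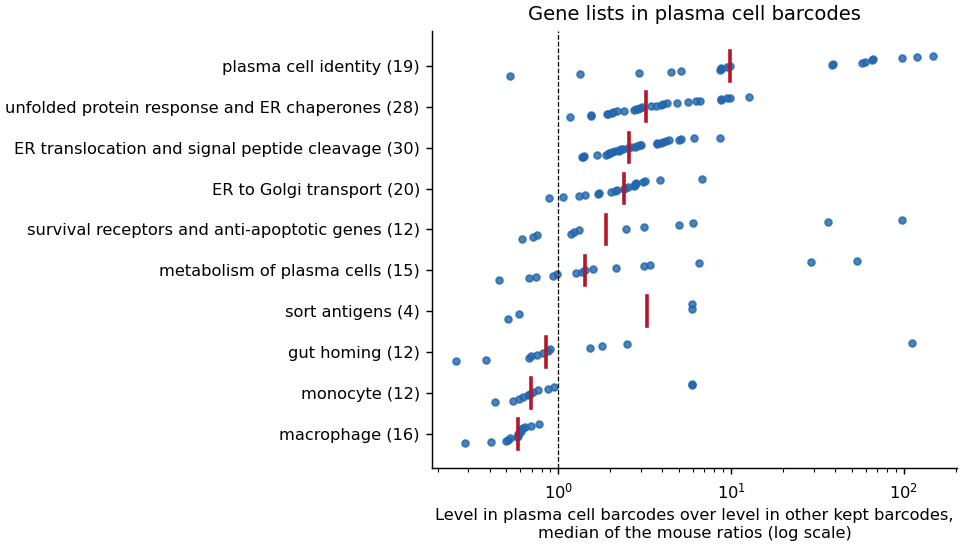
Each point is 1 gene of the list named at the left (number of genes in brackets), placed by the median over the mice of its level in plasma cell barcodes divided by its level in the other kept barcodes, on a log axis; red bars are list medians and the dashed line marks equal levels. The secretory lists lie almost wholly to the right of the line and the macrophage list, with a median of 0.588, lies to the left of it.

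By ratio to the other kept barcodes, Tnfrsf17 and Cd28 stood out among the survival receptors, both being in the ranking above. Tnfrsf13b, which encodes the receptor TACI, stood at 145.8, 176.2, 286.8 and 134.8 non-Ig CPM (median ratio 4.99), and Tnfrsf13c, the BAFF receptor gene, was low, at 9.56 to 18.8 non-Ig CPM. Of the 12 genes of this list 4 were over 2 times the others in every mouse. Cd44 (median ratio 1.32) and Mcl1 (1.18), which many immune cells express, were close to the other kept barcodes.

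Homing genes gave a mixed picture. Ccr10 was high, the integrin genes Itgb7 and Itga4 had median ratios of 2.502 and 1.52, and Ccr9, the small intestinal homing receptor gene, had no UMI in any plasma cell barcode. Its absence from 80 barcodes allows a share of up to 3.75% of barcodes with a UMI. Gpr15 had a UMI in 1.25% of them. Klf2 (median ratio 0.869) was near the other kept barcodes.

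Genes of earlier B cell stages were scarce. Pax5, Fcer2a, Cr2, Fcmr and Blk had no UMI in any of the 80 barcodes, and Ms4a1, the CD20 gene, had one in 1.25% of them. Cd79a stood at 409.1, 362.5, 392.0 and 354.6 non-Ig CPM against 11.2 in the other kept barcodes, and Cd79b had a median ratio of 5.92. The summed B cell list was 4.42% to 5.99% of non-immunoglobulin UMIs, against 8.03% to 8.48% in the others, and its largest members, Cd74, H2-Aa and H2-Ab1, are also antigen presentation genes of macrophages. Of the 15 proliferation genes 0 were over the others in every mouse, and Mki67 was counted in 6.25% of plasma cell barcodes.

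Of the metabolic genes Phgdh, the first enzyme of serine synthesis, stood out most, at 159.9, 115.8, 239.0 and 79.1 non-Ig CPM against 1.57 (median ratio 53.7). Slc3a2, a subunit of amino acid transporters, had a median ratio of 3.41. Among secreted mediators Il10 stood at 23.5, 25.2, 47.8 and 32.2 non-Ig CPM against 24.2 in the others, and Ccl3 and Ccl4 at median ratios of 0.608 and 0.648. Nos2 had no UMI in plasma cell or other kept barcodes. Bst2, of the interferon response list and also a known plasma cell surface protein, had a median ratio of 3.46, while the list's median was 0.701.

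The sort antigens were of interest because the cells had passed the gate. Ly6c2, a gene of the Ly6C antigen, stood at 1072, 951.5, 803.1 and 1114 non-Ig CPM, with a median ratio of 5.94. It had a UMI in 85.0% of plasma cell barcodes and 41.5% of the others. In single barcodes it ran from 0 to 8666 non-Ig CPM with a median of 346.0, and 20 of the 80 held at least 1000 non-Ig CPM (6, 5, 2 and 7 barcodes). Ly6c1, a close copy whose reads may be divided with Ly6c2, had a median ratio of 5.93. Itgam, the CD11b gene, stood at 47.0, 55.4, 28.7 and 55.7 non-Ig CPM (ratios 0.281 to 0.604), and Fcgr1, the CD64 gene, at 136.4, 85.6, 153.0 and 143.6 (ratios 0.376 to 0.792). Itgam had a UMI in 30 of the 80 barcodes and Fcgr1 in 53.

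Macrophage transcripts were present in every plasma cell barcode. C1qa, a complement gene of tissue macrophages, and Lyz2, the lysozyme gene, had a UMI in 80 of 80. C1qa stood at 2502, 2291, 2820 and 2799 non-Ig CPM, against 4338 ± 383.9 (SD, n = 4 mice) in the other kept barcodes and 1488 ± 317.5 in barcodes under 500 UMIs. Of the 16 macrophage genes 15 were under the other kept barcodes in every mouse, against 1142 of 8576 genes (13.3%), with a median ratio of 0.588. Their ratios were close together for the abundant members, 0.643 for Apoe, 0.610 for Lyz2, 0.579 for C1qa and 0.602 for Cx3cr1.

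Barcode by barcode, the 16 macrophage genes took 2.47% to 8.97% of non-immunoglobulin UMIs (median 4.95%). In the other kept barcodes the median was 7.197%, and the summed barcodes under 500 UMIs held 2.65%, 2.18%, 3.28% and 2.72%. The plasma cell medians by mouse, 4.24%, 4.06%, 5.19% and 5.29%, lay between these levels in every mouse. Of the 80 barcodes 4 exceeded the median of the others and 7 were under their 5th percentile of 3.22%. The barcodes therefore carry the label's markers together with a macrophage profile at an intermediate share of non-immunoglobulin UMIs. An intermediate share is not an intermediate count, since median non-immunoglobulin UMIs were 10668 in plasma cell barcodes and 5848 in the others. Whether the macrophage profile comes from free RNA or from a second cell in the droplet was not tested.

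**Figure D4:**
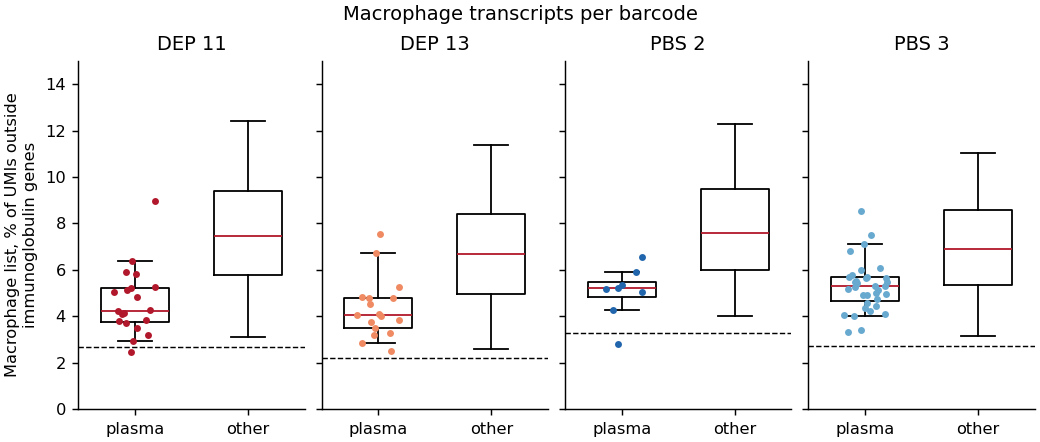
For each mouse, boxes give the share of non-immunoglobulin UMIs on the 16 macrophage genes in percent, for plasma cell barcodes (each a point) and the other kept barcodes; boxes span the quartiles, whiskers the 5th to 95th percentile, red lines the medians, and the dashed line the share in summed barcodes under 500 UMIs. In each mouse the plasma cell median lies above the dashed line and under the median of the other kept barcodes.

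Markers of further cell types were sparse. The T cell list summed to 0.0181% to 0.0310% of non-immunoglobulin UMIs, against 0.00936% to 0.0106% in the others, with Cd2, which mouse B lineage cells also express, the only T cell gene over 2 times the others in every mouse. Epithelial genes summed to 0.00856% to 0.0158%, and Krt20, Cdh1 and Cldn3 had no UMI, while Epcam had one in 30.0% of plasma cell barcodes and 0.836% of the others. Of the 8 neutrophil and mast cell genes 7 had no UMI.

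Immunoglobulin transcripts were also found outside the plasma cell barcodes. They made up 0.467%, 0.717%, 0.403% and 1.01% of the UMIs of the other kept barcodes, and 0.886%, 2.11%, 0.837% and 4.61% in barcodes under 500 UMIs. For every 100 Igkc UMIs the plasma cell barcodes held 40.5, 29.7, 46.8 and 30.8 Igha UMIs, and the other kept barcodes of the same mice 39.4, 32.0, 43.2 and 32.5. In both, PBS 2 and DEP 11 were above PBS 3 and DEP 13, of which the last pair lay close together. Barcodes under 500 UMIs held 35.1, 26.7, 36.4 and 20.5, with PBS 3 lowest. For Jchain the values per 100 Igkc UMIs were 21.05, 18.6, 19.9 and 20.9 in plasma cell barcodes and 20.2, 17.6, 15.7 and 21.1 in the other kept barcodes, and the order of the mice differed between the sets.

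Exposure was compared over mice, not over barcodes. With 2 mice per group the exact permutation test has 6 assignments and cannot give a two-sided p under 0.3333. Plasma cell barcodes made up 1.68%, 2.61%, 0.643% and 2.27% of the kept barcodes. Their 95% Clopper-Pearson intervals, which cover counting error only, were 1.03 to 2.59%, 1.53 to 4.14%, 0.278 to 1.26% and 1.59 to 3.15%. The group means were 2.15% ± 0.652 and 1.46% ± 1.15 (SD, n = 2 mice), and the groups overlapped (exact permutation p = 0.667, and 1 after adjustment over 6 per-mouse values). PBS 2 set the direction, since the difference of 0.688 percentage points became -0.127 without it. The share is set by the sort as well as by the tissue, and fewer plasma cells in the tissue and fewer passing the gate cannot be told apart.

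The immunoglobulin share per barcode, which the rule used, is given as a description with no test. Its median per mouse was 42.0%, 43.2%, 53.1% and 51.3%, so that both DEP mice lay below both PBS mice. The group means were 42.6% ± 0.844 and 52.2% ± 1.28 (SD, n = 2 mice), a difference of -9.63 percentage points. The difference was -5.73 when barcodes had to hold at least 40% immunoglobulin. Median UMIs per plasma cell barcode were 15826, 20255, 25252 and 20699, again without overlap, and the immunoglobulin UMIs of the rule are part of them. Outside immunoglobulin genes the median UMIs overlapped between the groups, at 9656, 12016, 11788 and 9918. In the other kept barcodes the immunoglobulin share was 0.592% ± 0.177 after DEP and 0.708% ± 0.431 after PBS, and the groups overlapped. The PBS mice lay at both ends, with 0.403% in PBS 2 and 1.01% in PBS 3. The difference between the group means, -0.116 percentage points, turned to 0.403 when plasma cell barcodes had to hold at least 40% immunoglobulin.

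Isotype and light chain, which were read from the immunoglobulin UMIs that the rule used, are likewise a description. Igha led in 100% of barcodes in every mouse. Kappa barcodes made up 90.0%, 100%, 87.5% and 94.3%, with group means of 95% ± 7.07 and 90.9% ± 4.80 (SD, n = 2 mice), and the groups overlapped. The difference was 4.11 percentage points and turned to -3.44 when barcodes had to hold at least 40% immunoglobulin.

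The UMIs of the plasma cell barcodes were then summed per mouse and compared with edgeR's quasi-likelihood test over 8672 genes, with levels given as UMIs per 1000000 of all UMIs (CPM). At a false discovery rate of 5%, 20 genes (0.231%) were called, 11 higher (0.127%) and 9 lower (0.104%) after DEP, and 334 (3.85%) had an unadjusted p under 0.05. The count was 40 without PBS 2 and 48 without PBS 3, and DESeq2 called 0 with 29 at an unadjusted p under 0.05. Immunoglobulin genes made up 14 of the 20. Their UMIs entered the share that chose the barcodes, so their values are given as a description with no p, and with these genes left out of the fit edgeR called 7, namely the 6 genes described below and Ccl5, a chemokine gene that was lower after DEP (log2 fold change -2.15, edgeR adjusted p = 0.00672) with 6, 7, 5 and 65 UMIs, of which 49 lay in 1 PBS 3 barcode. In 11 of the 14, over 50% of the UMIs of the group in which the gene was higher came from 1 barcode.

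The variable genes among the 14 rested on few barcodes. Igkv19-93 had 204, 0, 0 and 1 UMIs, and 99.0% of those after DEP were in 1 barcode (log2 fold change 7.38). Igkv4-91 had 0, 134, 1 and 0 UMIs, with 92.5% of those after DEP in 1 barcode (6.92). Igkv6-14 (4.08) and Igkv9-124 (5.97) were higher in the same way, with 86.5% and 82.4% of the DEP UMIs in 1 barcode. Of the genes lower after DEP, Igkv8-24 (-6.00) had 111 of its 112 UMIs in PBS 3, and Igkv12-41 (-4.42) had 192 of 198 in PBS 3 and stood at 4.43 without that mouse. Igkv4-74 (-3.20) had 0, 14, 63 and 54 UMIs and Igkv4-86 (-4.74) had 0, 3, 56 and 6. Of these 12 variable genes 6 had both DEP mice on 1 side of both PBS mice, beside 22.3% of all 8672 genes with both DEP mice above and 11.3% with both below.

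The constant genes Ighm and Iglc2 rested likewise on few barcodes. Ighm had 424, 22, 6 and 50 UMIs (log2 fold change 3.19), and the DEP 11 count was carried by the 3 barcodes named above. Iglc2 had 1071, 695, 856 and 9872 UMIs (-2.13), with 77.1% of the PBS UMIs in the Iglc2-led lambda barcode of PBS 3. Igha, Igkc and Jchain had log2 fold changes of -0.34 ± 0.57, -0.20 ± 0.68 and -0.26 ± 0.52 (SE).

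Outside immunoglobulin genes 3 genes were called higher after DEP. Cd209a, a C-type lectin gene of dendritic cells (chr8:3743397-3748984 on mm10), stood at 125.0, 97.0, 4.75 and 13.02 CPM (log2 fold change 3.20 ± 0.49 SE, edgeR adjusted p = 0.000193). Klrd1, the CD94 gene of natural killer and some dendritic cells, stood at 57.3, 27.7, 0 and 5.79 (3.06 ± 0.68, edgeR adjusted p = 0.0221). Apol7c, an apolipoprotein L gene, stood at 177.1, 63.7, 23.8 and 27.5 (2.04 ± 0.44, edgeR adjusted p = 0.0173). For each of the 3 both DEP mice were above both PBS mice, as were 1936 of the 8672 genes (22.3%).

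Few barcodes carried these transcripts. Cd209a had a UMI in 5, 4, 1 and 5 plasma cell barcodes. The 5 barcodes with at least 3 Cd209a UMIs, 3 in DEP 11, 1 in DEP 13 and 1 in PBS 3, held 81 of its 93 UMIs. The same 5 barcodes held 30 of the 36 Klrd1 UMIs and 19 of the 39 UMIs of Tnip3, an inhibitor of NF-κB signalling, but 2 of the 115 Apol7c UMIs. Their median macrophage share was 2.94%, against 4.98% in the remaining 75. Apol7c had 61.5% of its DEP UMIs in 1 barcode. In the other kept barcodes Cd209a had a UMI in 8.74%, 5.67%, 8.58% and 5.52% of barcodes, and its log2 fold change there was 0.34 (edgeR adjusted p = 0.9998). Apol7c stood there at 268.5, 269.3, 178.0 and 120.0 non-Ig CPM, both DEP mice above both PBS mice (log2 fold change 0.86, edgeR adjusted p = 0.6578). These levels are on another scale than its CPM in plasma cell barcodes. Apol7c had a UMI in 32.9%, 31.2%, 30.3% and 21.3% of the other kept barcodes. In DEP 11, 1 barcode held 35.4% of the Cd209a and 1 held 54.5% of the Klrd1 UMIs, and in DEP 13 these shares were 88.6% and 80%. Cd209a lost its call with DESeq2 (adjusted p = 0.373), a stricter gene filter (edgeR adjusted p = 0.332) and thinning (edgeR adjusted p = 0.973). Klrd1 and Apol7c were not called with any of these settings, nor with limma voom. Without DEP 11, which leaves 1 DEP mouse, the log2 fold changes of Klrd1 and Apol7c were 2.53 and 1.21.

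In the fit over all 8672 genes, the 3 genes outside immunoglobulin genes that were called lower belong to the heat shock and immediate early responses. Dnajb1, an HSP40 cochaperone gene, stood at 65.1, 130.2, 256.6 and 434.1 CPM (log2 fold change -1.95 ± 0.37, edgeR adjusted p = 0.00284). Bag3, a cochaperone of HSP70, stood at 7.82, 5.54, 47.5 and 46.3 (-2.86 ± 0.60, edgeR adjusted p = 0.0109), and Ier2, an immediate early gene, at 96.4, 97.0, 418.2 and 183.8 (-1.64 ± 0.36, edgeR adjusted p = 0.0173). Dnajb1 had a UMI in 68 of the 80 barcodes, and no barcode held more than 10.7% of its PBS UMIs. In PBS 2, which had 8 plasma cell barcodes, single barcodes weighed more, with 1 barcode holding 40.7% of the 54 Dnajb1 UMIs, 70% of the 10 Bag3 UMIs and 51.1% of the 88 Ier2 UMIs. All 3 genes lost the call with DESeq2, a stricter gene filter, scaling by library size alone and thinning, and Bag3 and Ier2 also with limma voom. Without DEP 11 all 3 lost the call (log2 fold changes -1.48, -3.05 and -1.57, edgeR adjusted p = 0.735, 0.147 and 0.538), and Bag3 and Ier2 lost it without DEP 13 as well (edgeR adjusted p = 0.309 and 0.326). Bag3 also lost it without PBS 3 (edgeR adjusted p = 0.22) and Ier2 without PBS 2 (edgeR adjusted p = 0.0823).

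The other kept barcodes had differences of the same sign for these genes, which did not pass the test. Their log2 fold changes were -1.48 for Dnajb1, -1.64 for Bag3 and -0.73 for Ier2 (edgeR adjusted p = 0.714, 0.571 and 0.9998), and the difference between the plasma cell and the other effect was not called for any of them. The list of 17 tissue dissociation genes, which holds Dnajb1 and Ier2, summed to 0.995%, 1.21%, 1.61% and 1.47% of non-immunoglobulin UMIs in the plasma cell barcodes. In the other kept barcodes it summed to 1.42%, 1.21%, 1.73% and 1.49%, so that both DEP mice lay below both PBS mice in either set of barcodes. Of its 17 genes 2 were called lower in plasma cell barcodes, beside 0.104% of all genes, and 7 had both DEP mice below both PBS mice, beside 11.3%. The part of tissue handling in these values was not tested.

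**Figure D5:**
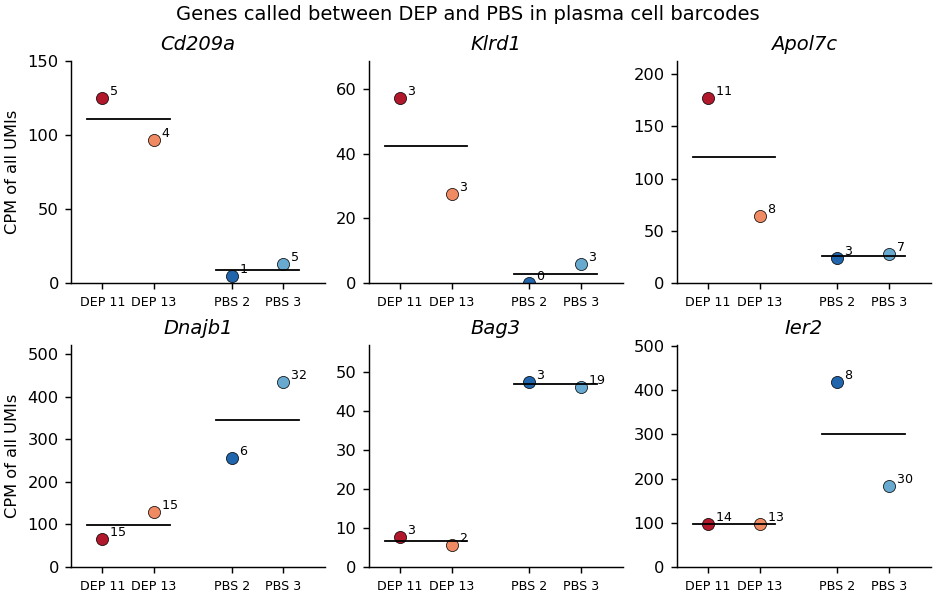
Each panel is a gene outside the immunoglobulin loci called between DEP and PBS, with CPM of all UMIs in the summed plasma cell barcodes on the y axis; points are the 4 mice, lines the group means, and the number beside a point is how many plasma cell barcodes of that mouse had a UMI. Cd209a, Klrd1 and Apol7c are higher in both DEP mice and rest on few barcodes, and Dnajb1, Bag3 and Ier2 are lower in both.

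The lists of the plasma cell programme held no called gene, which at 0.231% of genes called overall says little about lists of this size. All 19 identity genes were tested by edgeR and 0 called, 2 had an unadjusted p under 0.05, and the list had a median log2 fold change of -0.06 beside 0.09 over all 8672 genes. Sdc1 had a log2 fold change of -0.79 ± 0.36, Xbp1 of -0.46 ± 0.33 and Mzb1 of 0.25 ± 0.34 (SE; edgeR adjusted p = 0.99 for each). Of the 28 chaperone, 30 translocation and 20 export genes 0 were called by edgeR (2, 0 and 0 at an unadjusted p under 0.05), with medians of 0.14, 0.13 and 0.07. In these lists 6, 9 and 6 genes had both DEP mice above both PBS mice, beside 22.3% of all genes. The sort antigen genes Ly6c2 (0.11 ± 0.32) and Itgam (0.13 ± 0.53) were not called either, and of the 16 macrophage genes 0 were called among the 15 tested by edgeR, 0 of them at an unadjusted p under 0.05.

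The effect of DEP in plasma cell barcodes was set against that in the other kept barcodes of the same mice in 1 fit. The difference was called for 6 of 8672 genes (0.0692%), 5 higher (0.0577%) and 1 lower (0.0115%). The count was 1 without DEP 11 and 0 without PBS 2 or without PBS 3. On their own, the other kept barcodes had 0 called genes of 6604 (0%) by edgeR's quasi-likelihood test, 172 (2.6%) with an unadjusted p under 0.05 and 10 called by edgeR's likelihood ratio test. Ccl2, the monocyte chemokine gene, stood at 143.3, 243.8, 61.8 and 76.7 CPM in plasma cell barcodes, and had a log2 fold change of 1.34 there and of -0.57 in the others (difference 1.79, edgeR adjusted p = 0.00011). In plasma cell barcodes 1 barcode held 50.9% of the DEP 11 and 1 held 37.5% of the DEP 13 Ccl2 UMIs. Cd209a was also among the 6, as was Ighm, whose UMIs the rule used. In the lone test within plasma cell barcodes Ccl2 did not pass (edgeR adjusted p = 0.236).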

How the data were processed

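The authors deposited 1 table of raw UMI counts, 28692 genes by 6954 barcodes from 4 mice. Per the study's methods, reads were aligned to mm10 with STAR and counted with Cell Ranger, samples were merged without downsampling, and expression was tested on summed counts with edgeR. The submitters' processing notes name STAR 2.6.1a and R 3.5.1. Totals per mouse ran from 4489342 to 10293703 UMIs. The 4623 barcodes that passed the study's stated limits here are several times the number of filtered cells it gives, so the table may be another run or version of the experiment whose sort and design are described.

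Gene symbols and mm10 positions came from GENCODE (28339 of 28692 identifiers matched; 376 immunoglobulin genes). Kept barcodes also had a mitochondrial share above 0. The plasma cell barcodes of a mouse were summed. Genes over 1 CPM in at least 2 mice and detected in at least 5% of plasma cell barcodes were tested with edgeR 4.0.16 (TMM scaling, quasi-likelihood F test, Benjamini-Hochberg false discovery rate of 5%). The limit of 1 CPM is under 1 UMI in some of these sums. The difference of effects was fitted on 8 sums with the mouse as a block. Single values were tested by exact two-sided permutation over 6 assignments. The planned tests of immunoglobulin shares, isotype, light chain and UMIs per barcode, and p-values of immunoglobulin genes, are not reported, since the rule used those values. Alternatives used DESeq2 1.42.0, limma 3.58.1, other scalings, filters and barcode limits, and each mouse left out. Doublets were scored with scrublet in scanpy 1.11.5 and none was removed.

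On simulated data for the plasma cell comparison (8478 genes, of which 200 changed), edgeR called 31.3% of genes changed 4-fold, 75.0% of those changed 8-fold and 96.5% of those changed 16-fold, with 0 false calls. For the difference of effects (8494 genes) it called 21.7%, 68.3% and 91.2%, with 2 false calls. Counts were drawn with a common dispersion of 0.0699 for all genes, and changes were placed only in genes over a UMI minimum. UMIs concentrated in single barcodes were not simulated, so these false call counts cannot be carried over to the real sums.

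The members, gene lists and tests were chosen with earlier results of these data known. Genes were named by rule: all of the identity, immunoglobulin constant and sort antigen lists, up to 4 of each other list by level, up to 5 called genes per direction by p, the top 15 by lowest mouse ratio, and the leading variable genes. Klrd1, Apol7c, Bag3, Ier2, Tnip3 and several list genes were named after their values were seen.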

Additional observations from a re-analysis of the deposited data

Results flagged for a closer look

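Of 8672 genes, 6 had a DEP effect in plasma cell barcodes that differed from the effect in the other kept barcodes of the same mice, by a test of the difference itself (edgeR's quasi-likelihood test on 8 sums with the mouse as a block). Cd209a had a difference of 2.76 on the log2 scale (edgeR adjusted p = 0.00011). Ighm had one of 2.58, which is no test, since its UMIs entered the share that separates the sets, and its DEP 11 sum was carried by 3 barcodes. Tnip3 had one of 3.01 (edgeR adjusted p = 0.00205), with 21, 12, 2 and 4 UMIs in DEP 11, DEP 13, PBS 2 and PBS 3. Ccl2 had one of 1.79 (edgeR adjusted p = 0.00011), and its fold change was not called in either set of barcodes alone, while 1 barcode held 50.9% of its DEP 11 and 1 held 37.5% of its DEP 13 UMIs. Phlda1, a stress-responsive gene, had one of 1.88 (edgeR adjusted p = 0.0284), with log2 fold changes of 0.44 in plasma cell barcodes and -1.33 in the others, and with 63.6% of its 22 DEP 11 and 50% of its 14 DEP 13 UMIs in 1 barcode each. Ccl5, a T cell and macrophage chemokine gene, had one of -2.32 (edgeR adjusted p = 0.00433), and 70.0% of its PBS UMIs lay in 1 barcode. Groups of 2 mice allow no check for a mouse far from the rest of its group.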

How the results depend on the processing

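Differences are DEP minus PBS. In plasma cell barcodes edgeR's count of 20 called genes became 0 with DESeq2, 2 with limma voom (Cd209a and Dnajb1), 13 with RLE scaling, 1 with library size alone, 0 with filterByExpr (2441 genes tested), 47 with no gene filter, 7 with immunoglobulin genes left out, 32 with an immunoglobulin share of at least 40%, 37 with barcodes of high macrophage share (over 5.50%) left out and 0 after thinning to 3000 UMIs. The cause was not tested. Library size alone moved the median log2 fold change of all genes from 0.09 to 0.20. Leaving out each mouse, the lone one of its group being assumed to vary like the other group, gave 20 to 48 calls in plasma cell barcodes, 3 to 52 in the other kept barcodes (10 with the likelihood ratio test) and 0 to 4 for the difference. Igkv12-41 ran from -5.77 to 4.43 over mice left out.

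The difference in kappa share was -3.44 percentage points at an immunoglobulin share of at least 40%, that in median immunoglobulin share -8.13 at 10% and -5.73 at 40%, and that in the other kept barcodes' immunoglobulin share 0.403 at 40%. A minimum of 500 UMIs, scrublet calls and IgA left the same 80 barcodes and so tested nothing. Leaving out barcodes under 3000 UMIs, chosen after seeing the data, gave 18 calls. Over 33 genes and their alternatives, 539 of 678 values kept direction and side of the threshold, 123 fell short of it, 15 newly passed and 1 reversed. With 2 mice per group no per-mouse value could pass a threshold of 0.05 in the exact permutation test. No paired analysis was possible because the DEP and PBS mice share no replicate number.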
